A study of Mus musculus with 6 samples.

Results

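NRF2, the transcription factor encoded by Nfe2l2, its antioxidant target genes and a pair of aldo-keto reductase genes were followed in tumour cells sorted from mice, all derived from Lewis lung carcinoma, a transplantable lung cancer line of the mouse. The set held 10 genes, taken by symbol from the 55334 rows of a table of read counts per gene: Nfe2l2, Nqo1, Hmox1, Gclc, Gclm, Txnrd1, Srxn1, Akr1b3, Akr1b8 and Me1. Each symbol matched 1 row and all 10 passed the low-count filter, which left 16049 genes to test. The tumour cells carried green fluorescent protein (GFP) in all samples and either a guide RNA aimed at Jag2, which encodes a ligand of Notch receptors (JAG2KO, 3 libraries), or a scrambled guide RNA (Scramble, 3 libraries). They were grown as flank tumours in mice and sorted as GFP-positive cells that were negative for CD45, a leukocyte surface protein, and for the dead-cell dye DAPI. Mouse strain, mouse age and whether the edited cells were 1 clone or a pool were not stated in the labels. Nor do the labels tie each library to its own tumour, so the p-values rest on the spread between samples alone, and that spread may be technical.

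NRF2 is held at a low level by KEAP1, which presents it to a CUL3 ubiquitin ligase for destruction. Electrophiles and oxidants modify KEAP1, NRF2 then accumulates, pairs with a small MAF protein and binds antioxidant response elements near genes for glutathione synthesis, thioredoxin recycling, quinone and haem breakdown, and NADPH supply. Because this control acts mostly on the protein, the Nfe2l2 transcript and the transcripts of the targets are separate readouts. KEAP1 and NFE2L2 are frequently mutated in human lung cancers. The aldo-keto reductases use NADPH to reduce aldehydes, among them products of lipid oxidation and, for aldose reductase, glucose.

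The libraries JagKO2, JagKO3 and JagKO4 of JAG2KO held 37036772 to 42914376 counts and the 3 Scramble libraries 39448304 to 43923565. Jag2 itself measured 0.514, 0.799 and 1.11 CPM (read counts brought to a common library depth, with totals scaled by the trimmed mean of M values) in JagKO2, JagKO3 and JagKO4, against 1.52, 1.10 and 1.02 CPM in Scramble1, Scramble2 and Scramble3. The groups overlapped and the difference did not pass (log2 fold change -0.58, SE 0.39, adjusted p = 0.318 from edgeR), so the transcript level does not check the edit. Markers of lung epithelium were mostly absent or low, with Nkx2-1 at 0 in every library and Sftpc detected in JagKO2 alone. Epcam and Cdh1 averaged under 1 CPM in both groups. Krt18 averaged 307 ± 26.4 CPM in JAG2KO and 268 ± 7.86 CPM in Scramble (SD, n = 3 each). Krt8, the keratin that pairs with Krt18, averaged 4.13 ± 0.840 CPM in JAG2KO and 124 ± 4.6 CPM in Scramble and was the 1 marker called among 4 tested. JagKO2 stood apart over all genes: the chi-square per degree of freedom of its counts was 31.0 against JagKO3 and 25.4 against JagKO4, where JagKO3 and JagKO4 gave 14.03 and pairs of Scramble libraries 12.2 to 15.02. Results are therefore given with and without it. A group of libraries with fewer cells of a type and one with less RNA per cell cannot be told apart in bulk samples such as these.

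Both aldo-keto reductase genes were lower in JAG2KO, and no gene of the set was called higher. Akr1b8, an aldose reductase relative induced by growth factors and electrophiles, was at 0.631 of its Scramble level in JAG2KO. Akr1b3, mouse aldose reductase, was at 0.674 of it. The other 8 genes did not pass the test, and Nfe2l2 was nearly level, with a fold of 1.04 (95% interval 0.942 to 1.14). These 2 of 10 calls, both in the lower direction, compare with 24.3% of all tested genes called in either direction and 12.5% called lower by the same edgeR quasi-likelihood test (Benjamini-Hochberg adjusted p under 0.05), so the share of calls was near the background. No gene of the set was called higher by edgeR, DESeq2 or limma-voom, and 0 had an unadjusted edgeR p under 0.05 in that direction. In the lower direction 4 had such a p, namely Akr1b8, Akr1b3, Srxn1 and Nqo1. The median log2 fold change was -0.19 over the 10 genes and 0.0018 over all tested genes.

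**Figure D1:**
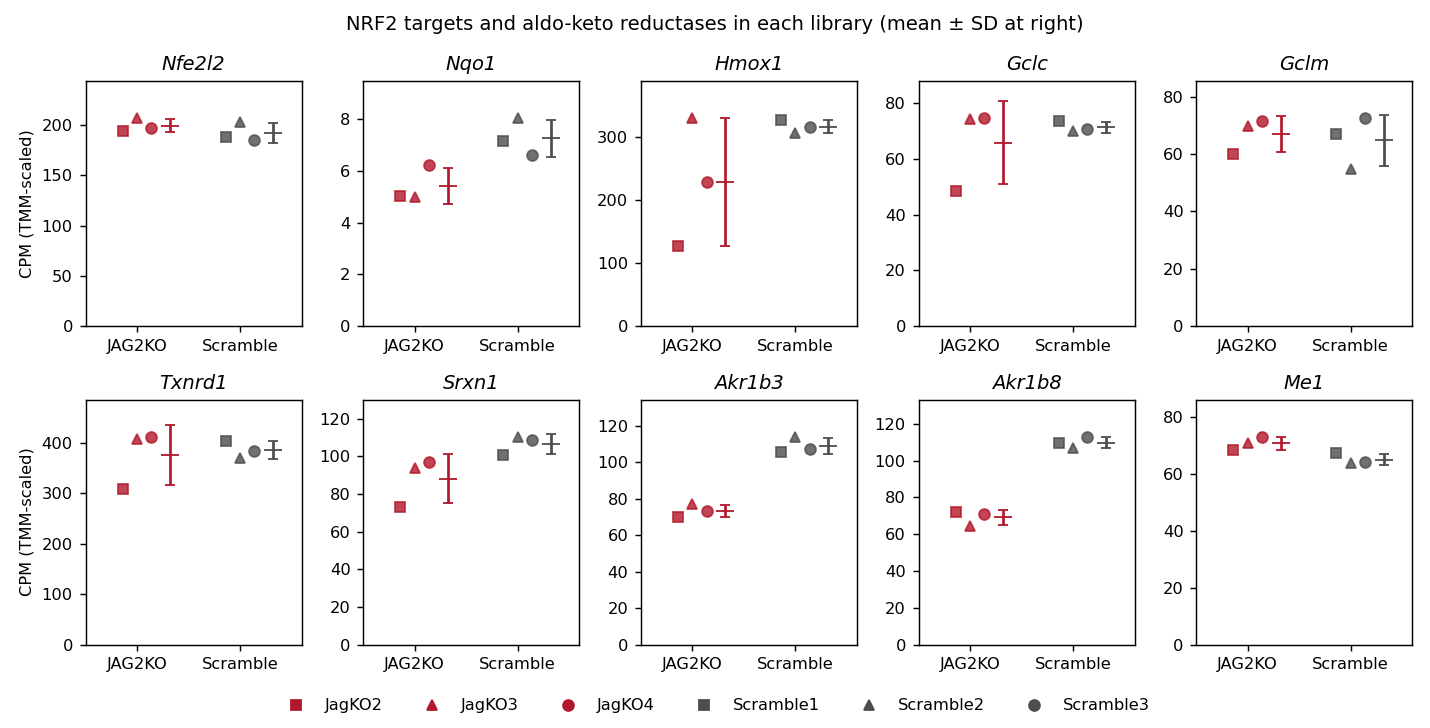
Expression of the 10 genes in each library, in CPM on axes that start at 0, with JAG2KO left of Scramble in every panel. Symbols are single libraries, and the bar to the right of each group is the mean ± SD of 3 libraries. Akr1b3 and Akr1b8 separate the groups by a wide gap, and for Hmox1, Gclc, Txnrd1 and Srxn1 the JagKO2 library lies below every other library.

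Akr1b8 measured 72.0, 64.6 and 70.9 CPM in JagKO2, JagKO3 and JagKO4, against 109, 107 and 113 CPM in Scramble1, Scramble2 and Scramble3. Every JAG2KO library lay well below every Scramble library, and the spread within each group was small. The log2 fold change was -0.66 (SE 0.07, adjusted p = 2.4e-05 from edgeR), lower in 3 of 3 JAG2KO libraries. Akr1b3 measured 69.9, 76.8 and 73.2 CPM in the JAG2KO libraries, against 106, 114 and 107 CPM in the Scramble libraries, again with a clear gap. Its log2 fold change was -0.57 (SE 0.07, adjusted p = 7.08e-05 from edgeR). Without JagKO2 the changes were -0.69 for Akr1b8 (edgeR adjusted p = 5.56e-06) and -0.54 for Akr1b3 (edgeR adjusted p = 5e-05). Both calls held under all 12 alternative settings, with log2 fold changes from -0.69 to -0.62 for Akr1b8 and from -0.60 to -0.53 for Akr1b3.

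Akr1b3 and Akr1b8 lie side by side on chromosome 6, in a cluster that also holds Akr1b10 and Akr1b7. In GENCODE M21 on GRCm38, protein-coding Akr1b3 spans chr6:34302434-34317478 on the minus strand, and protein-coding Akr1b8 spans chr6:34354119-34368463 on the plus strand. Akr1b10, the next gene, spans chr6:34384218-34396950 and measured 13.9, 11.95 and 12.9 CPM in the JAG2KO libraries, against 16.1, 17.9 and 17.3 CPM in the Scramble libraries. Its log2 fold change was -0.40 with an edgeR adjusted p of 0.0192, a call that ended without JagKO3, JagKO4, Scramble2 or Scramble3 (adjusted p = 0.0531 to 0.0891). Akr1b7, the fourth gene of the cluster, had a mean of 0 CPM in JAG2KO and 0.0378 CPM in Scramble and was not tested.

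Genes around the cluster were examined after these values were seen, and the fall was not limited to the reductase genes. Of the 14 tested genes nearest to Akr1b8 with a mean of at least 2 CPM, 7 on each side, 8 were lower, 2 higher and 4 not called, with a median log2 fold change of -0.40. Akr1b3 and Akr1b10 are among these 14. The others that fell included Cald1, a cytoskeletal regulator gene just past the cluster, with 583 CPM in JAG2KO and 933 CPM in Scramble on average, and Mkln1 at the far end of the window, with 48.8 CPM in JAG2KO and 82.6 CPM in Scramble. Podxl and Plxna4, between Mkln1 and the cluster, were higher, with log2 fold changes of 0.43 and 0.74. Over the whole of chromosome 6, 168 of 562 genes with a mean of at least 2 CPM fell (29.9%) and 86 rose (15.3%), against 15.5% and 14.3% of the 11493 such genes on all chromosomes. Other chromosomes had like shares of lower genes, with 32.7% on chromosome 12, 30.9% on chromosome 19 and 27.7% on chromosome X. A change of the reductase genes themselves and a shift of the whole stretch cannot be told apart.

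**Figure D2:**
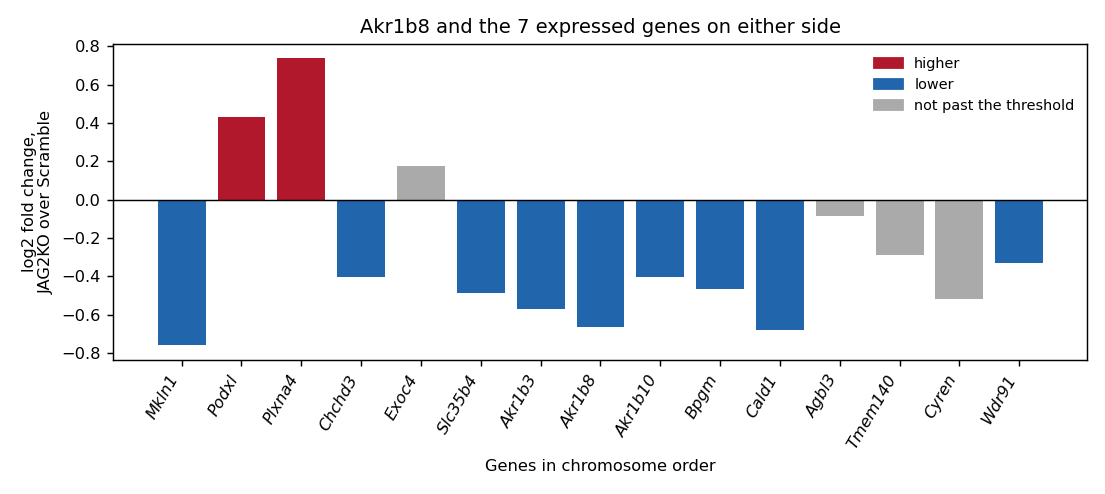
Log2 fold change, JAG2KO over Scramble, of Akr1b8 and the 7 expressed genes on either side in chromosome order. Bars are coloured by the edgeR call. Akr1b3, Akr1b8 and Akr1b10 stand in a row of lower genes that runs from Slc35b4 to Cald1, with Plxna4 and Podxl higher and Mkln1 lower further away.

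Sequences upstream of the 2 neighbouring reductase genes with an entry in the RefSeq promoter table (GRCm38.p6) are shown because these genes fell together. Each line runs from 250 bases before the annotated start to 50 bases after it, on the gene's plus strand, with the transcribed bases in capitals. The first is chr6:34353896-34354195 and the second chr6:34383997-34384296.
Akr1b8: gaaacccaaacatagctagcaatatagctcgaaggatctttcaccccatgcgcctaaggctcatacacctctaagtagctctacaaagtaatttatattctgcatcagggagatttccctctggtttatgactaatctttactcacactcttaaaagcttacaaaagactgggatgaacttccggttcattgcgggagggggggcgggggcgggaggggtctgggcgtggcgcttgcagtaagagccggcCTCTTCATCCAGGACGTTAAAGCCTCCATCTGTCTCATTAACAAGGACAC
Akr1b10: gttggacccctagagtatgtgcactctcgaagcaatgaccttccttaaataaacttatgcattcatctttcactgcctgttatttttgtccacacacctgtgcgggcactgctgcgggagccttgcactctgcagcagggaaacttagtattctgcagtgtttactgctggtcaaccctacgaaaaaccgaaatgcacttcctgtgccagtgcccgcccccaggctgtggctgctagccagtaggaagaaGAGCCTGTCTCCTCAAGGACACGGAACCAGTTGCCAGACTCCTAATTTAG

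Antioxidant response elements were searched as TGACNNNGC and as TGAGTCAGC, on both strands. Both motifs were chosen after the values were seen, and a match that reads TGAGTCA or TGACTCA also holds an AP-1 site. Of all 32851 promoter windows of 300 bases in the table, 12.4% held the first, 0.414% the second and 12.7% either. Neither was found in the Akr1b8 or Akr1b10 window. Promoters were listed for 7 of the 10 genes, with Hmox1, Gclc and Akr1b3 having none, and these 7 had 10 windows, of which 5 held a match, 1 window for each of 5 genes. The genes were chosen as known NRF2 targets and reductases, so this share is a description. The matches are printed to show where the element lies in these genes, none of which passed the test. Each is in capitals with 10 flanking bases, read on the gene's strand, and a capital run that begins with GC is a match on the opposite strand.
Nfe2l2, minus strand, chr2:75704885-75704913: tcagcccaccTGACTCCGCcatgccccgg
Gclm, plus strand, chr3:122245413-122245441: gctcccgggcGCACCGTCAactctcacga
Txnrd1, plus strand, chr10:82859104-82859132: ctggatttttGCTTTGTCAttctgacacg
Srxn1, plus strand, chr2:152105469-152105497: aaattcacccTGAGTCAGCggccgggcgc
Srxn1, plus strand, chr2:152105542-152105570: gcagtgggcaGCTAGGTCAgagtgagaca
Me1, minus strand, chr9:86695902-86695930: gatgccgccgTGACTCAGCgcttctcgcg
A match says only that these letters lie in the window, and a window without one says nothing of elements further away.

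Nfe2l2 (chr2:75675513-75704641, minus strand), which encodes NRF2, measured 194, 207 and 197 CPM in JagKO2, JagKO3 and JagKO4, against 189, 203 and 185 CPM in Scramble1, Scramble2 and Scramble3. The libraries of both groups were interleaved. The difference was 0.05 in log2 (SE 0.06, adjusted p = 0.606 from edgeR) and 0.070 without JagKO2. The 3 named genes whose centred log2 CPM lay nearest to that of Nfe2l2 over the 6 libraries were Usp37, Sept11 and Pxk, at Euclidean distances of 0.042, 0.043 and 0.047. For Akr1b8, the gene of the set with the largest change, they were Gtf2ird1, Isoc2a and Pacs1, at distances of 0.080, 0.11 and 0.11.

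Glutathione synthesis begins with glutamate-cysteine ligase, whose catalytic subunit is encoded by Gclc and whose modifier subunit is encoded by Gclm. Gclc (chr9:77754535-77794485) measured 48.6, 74.5 and 74.6 CPM in JagKO2, JagKO3 and JagKO4, against 73.5, 69.9 and 70.7 CPM in the Scramble libraries. JagKO3 and JagKO4 lay above every Scramble library and JagKO2 far below. The log2 fold change was -0.11 (SE 0.13, adjusted p = 0.58 from edgeR). Without JagKO2 it was 0.064 (edgeR adjusted p = 0.553). Gclm (chr3:122245557-122270732) measured 59.8, 69.7 and 71.4 CPM in the JAG2KO libraries, against 66.8, 54.9 and 72.4 CPM in the Scramble libraries, so the groups overlapped. Its log2 fold change was 0.05 (SE 0.10, adjusted p = 0.768 from edgeR). It was 0.13 without JagKO2 and -0.047 without Scramble2. Around Gclm, on chromosome 3, 5 of the 14 nearest expressed genes were higher and 1 was lower. Over the whole chromosome 32.5% were higher and 5.16% lower, against 14.3% and 15.5% on all chromosomes. Exons of Gm17494 on the other strand cover 4.71% of the exon bases of Gclm, and the labels do not say whether reads were counted by strand.

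Of the thioredoxin arm, Txnrd1 (chr10:82833951-82897712), the cytosolic reductase that regenerates thioredoxin, measured 308, 408 and 412 CPM in JagKO2, JagKO3 and JagKO4, against 404, 369 and 384 CPM in the Scramble libraries. JagKO3 and JagKO4 exceeded all Scramble libraries and JagKO2 was below all of them. This gave a log2 fold change of -0.04 (SE 0.10, adjusted p = 0.825 from edgeR). Without JagKO2 it was 0.088 (edgeR adjusted p = 0.335), and without Scramble1 0.0072. Srxn1 (chr2:152105516-152111376), sulfiredoxin, repairs over-oxidised peroxiredoxins. It measured 73.2, 93.9 and 97.1 CPM in the JAG2KO libraries, against 101, 110.3 and 109 CPM in the Scramble libraries, with no overlap. Its log2 fold change of -0.27 (SE 0.10) missed the threshold (edgeR adjusted p = 0.0576), and it was -0.16 without JagKO2 (adjusted p = 0.112) and -0.35 without JagKO4 (adjusted p = 0.0425). DESeq2 gave Srxn1 an adjusted p of 0.0375, and the range over 12 alternatives was 0.00601 to 0.178.

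Hmox1 (chr8:75093621-75100589) encodes haem oxygenase 1, which opens the haem ring and is also abundant in macrophages that clear red cells. It measured 127, 329 and 228 CPM in JagKO2, JagKO3 and JagKO4, against 327, 306 and 316 CPM in Scramble1, Scramble2 and Scramble3. The JAG2KO libraries lay far apart, with JagKO2 lowest and JagKO3 above every Scramble library, whereas the Scramble libraries lay close together. The means were 228 ± 101 CPM in JAG2KO and 317 ± 10.2 CPM in Scramble (SD, n = 3 each). The log2 fold change was -0.47 (SE 0.23, adjusted p = 0.166 from edgeR), with a 95% interval from -0.98 to 0.04. It was -0.18 without JagKO2 (edgeR adjusted p = 0.257) and -0.83 without JagKO3 (edgeR adjusted p = 0.00751). Hmox1 passed only when JagKO3 was left out or, among the other alternatives, with no low-count filter (edgeR adjusted p = 5.92e-09). With no filter the log2 fold change was -0.46 and the SE 0.07, against the SE of 0.23 above. That p-value therefore does not carry the wide spread of the JAG2KO libraries. Of 15 macrophage markers 4 were higher and 1, Cd14, was lower, and none was at 0 in every library. Their summed level was 99.3 to 120.1 CPM in JAG2KO and 65.4 to 75.0 CPM in Scramble. Lyz2, one of those called higher, was the largest part of this sum in every library. Of the 5 red cell markers tested 4 were lower, and the list summed to 12.2 to 31.3 CPM in JAG2KO and 50.4 to 60.1 CPM in Scramble. Their part in the Hmox1 levels was not tested.

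Nqo1 (chr8:107388225-107403206), a quinone reductase gene often used as a readout of NRF2, had the fewest counts of the set, with 186 to 269 counts in the JAG2KO libraries and 260 to 350 counts in the Scramble libraries. It measured 5.03, 5.0 and 6.21 CPM in JagKO2, JagKO3 and JagKO4, against 7.14, 8.03 and 6.62 CPM in the Scramble libraries. All JAG2KO libraries were below all Scramble libraries, by a narrow gap. The difference, -0.42 in log2 (SE 0.17), did not pass (edgeR adjusted p = 0.0856), nor did it under any of the 12 alternatives (adjusted p = 0.0729 to 0.291). Without JagKO2 it was -0.37. Of its 14 nearest expressed genes on chromosome 8, 5 were lower and 1 higher. Of the 14 nearest to Hmox1, on the same chromosome, 3 were lower and 0 higher. Over the whole chromosome 18.1% were lower and 8.02% higher, against 15.5% and 14.3% on all chromosomes.

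Me1 (chr9:86581371-86695953) encodes cytosolic malic enzyme, which makes NADPH. It measured 68.3, 71.0 and 73.0 CPM in JagKO2, JagKO3 and JagKO4, against 67.2, 63.7 and 64.0 CPM in the Scramble libraries. The groups did not overlap, but the gap was smaller than the spread within either group. The log2 fold change was 0.12 (SE 0.07, adjusted p = 0.198 from edgeR), and 0.15 without JagKO2. Counted together, 5 of the 10 genes (Nqo1, Srxn1, Akr1b3, Akr1b8 and Me1) had groups that did not overlap, against 40.3% of all tested genes.

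**Figure D3:**
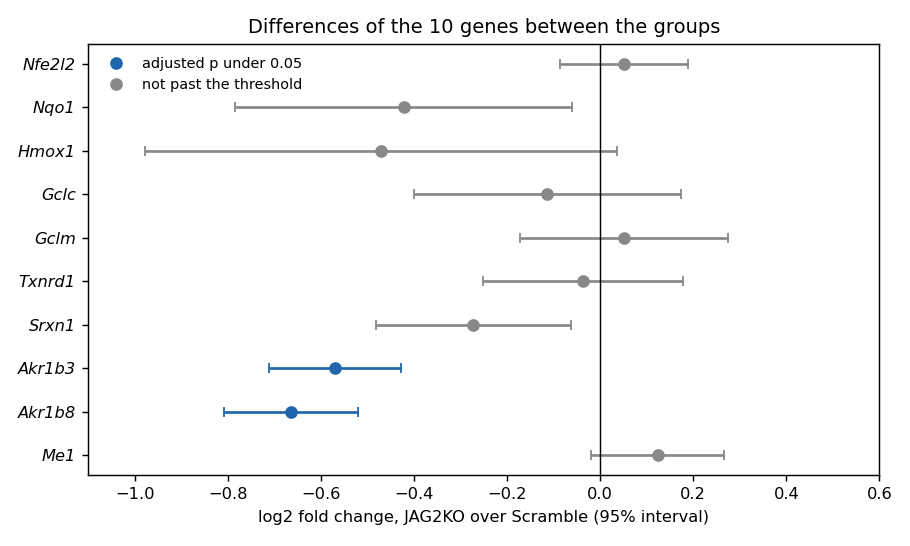
Log2 fold change of each of the 10 genes, JAG2KO over Scramble, with its 95% interval from the edgeR fit over 3 libraries a group. Blue marks the genes past the threshold, Akr1b3 and Akr1b8. Intervals of Nqo1 and Srxn1 end below 0 although their adjusted p-values missed 0.05, and that of Hmox1 is the widest.

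Within JAG2KO, JagKO2 was the lowest JAG2KO library for 8 of the 10 genes, where it was so for 35.8% of all tested genes. Among the 101 tested related genes of the same pathways, described further on, it was the lowest for 34, a share near that background. Relative to the mean of JagKO3 and JagKO4, its level was 0.456 for Hmox1, 0.652 for Gclc, 0.751 for Txnrd1, 0.766 for Srxn1 and 0.848 for Gclm. For Akr1b8, Akr1b3, Me1 and Nfe2l2 that ratio was 1.06, 0.933, 0.949 and 0.962, and for Nqo1 it was 0.897. The library was looked at in this way after its values were seen, so these ratios are a description. JagKO2 also had the highest sum of 6 fibroblast and pericyte markers, at 1233 CPM, against 865 CPM in JagKO3, 810 CPM in JagKO4 and 712 to 850 CPM in the Scramble libraries. Of these 6 markers, 2 were higher and 1 lower in JAG2KO. Dcn and Lum made up most of the sum in every library, and neither was called. The sum of 4 skin markers was 22.2 CPM in JagKO2, 8.41 and 9.44 CPM in JagKO3 and JagKO4 and 1.86 to 2.49 CPM in Scramble. Of the 4, 2 were higher. Endothelial markers, 5 of 10 of them higher, summed to 43.7 to 59.4 CPM in JAG2KO and 28.5 to 32.7 CPM in Scramble, and 4 fat markers, none called, to 5.41 to 7.24 CPM in JAG2KO and 4.25 to 7.55 CPM in Scramble. No marker of these 4 lists was at 0 in all libraries of JAG2KO. Their part in the low NRF2 targets of JagKO2 was not tested.

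**Figure D4:**
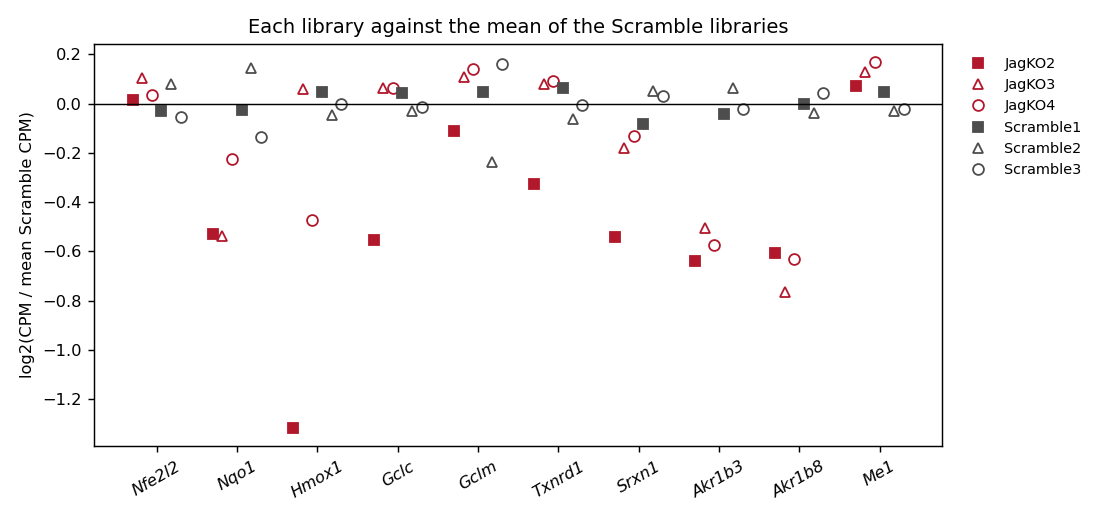
Level of each gene in each library as log2 of its CPM over the mean of the Scramble libraries. Filled red squares are JagKO2, open red symbols JagKO3 and JagKO4, grey symbols the Scramble libraries. JagKO2 reaches -1.32 for Hmox1 and -0.55 for Gclc, where JagKO3 lies at 0.06 for both, while all JAG2KO libraries lie between -0.50 and -0.76 for Akr1b3 and Akr1b8.

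Levels of different genes were compared per kilobase of exon. Hmox1 was the most abundant, with 130.3 ± 57.7 CPM per kilobase in JAG2KO and 181 ± 5.84 CPM per kilobase in Scramble (SD, n = 3 each). Nqo1 was the least abundant, with 3.49 ± 0.444 CPM per kilobase in JAG2KO and 4.68 ± 0.460 CPM per kilobase in Scramble. In JAG2KO the order from high to low was Hmox1, Txnrd1, Nfe2l2, Akr1b8, Srxn1, Me1, Gclc, Gclm, Akr1b3 and Nqo1. Libraries of neighbours in that order overlapped for Txnrd1 and Nfe2l2 and for Me1 and Gclc. Txnrd1, at 43.4 to 58.1 CPM per kilobase, also overlapped Akr1b8, at 43.1 to 48.1 CPM per kilobase, and in JagKO2 Akr1b8 lay above Txnrd1. Akr1b8, at 46.2 ± 2.66 CPM per kilobase in JAG2KO and 73.2 ± 2.04 CPM per kilobase in Scramble, came second in Scramble and stood there above Txnrd1 and Nfe2l2 without overlap. The remaining order in Scramble was Txnrd1, Nfe2l2, Srxn1, Gclc, Me1, Akr1b3, Gclm and Nqo1, with overlap of Txnrd1 and Nfe2l2 alone. The per-kilobase level of Akr1b3, 8.74 ± 0.407 CPM in JAG2KO and 13.0 ± 0.518 CPM in Scramble, depends on a long union of annotated exons (8384 bases, against 1499 bases for Akr1b8). That of Txnrd1 depends on a union of 7086 bases, so its place below Akr1b8 in Scramble rests on the exon length used.

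Close copies could affect some of these counts. Of the distinct 50-base words in the GENCODE M21 transcripts of a gene, 28.3% of those of Me1, 13.6% of those of Akr1b3, 4.58% of those of Gclm and 2.9% of those of Akr1b8 also occur in transcripts of other genes. For Nfe2l2, Nqo1, Hmox1, Gclc, Txnrd1 and Srxn1 that share was 0. Akr1b8 shared 2.14% of its words with Akr1b10. The copies that share most with Akr1b3 and Me1, Gm38056 and Gm7049, held 6 and 29 counts over all 6 libraries. How reads with several places were counted was not stated in the labels, so the levels of Me1 and Akr1b3 are less certain than their spread shows.

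Around these 10 genes, 114 others of the same pathways were followed, of which 101 were tested. Of the 101, 16 were higher, 23 lower and 62 not called, with a median log2 fold change of -0.09. Changes of these genes are given as log2 fold changes. Over all tested genes 11.8% were higher and 12.5% lower. Without JagKO2 the related genes gave 15 higher and 23 lower, but the lower count was 13 without JagKO4, 13 without Scramble1 and 12 without Scramble2, and the higher count was 7 without Scramble1 and 8 without Scramble2.

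**Figure D5:**
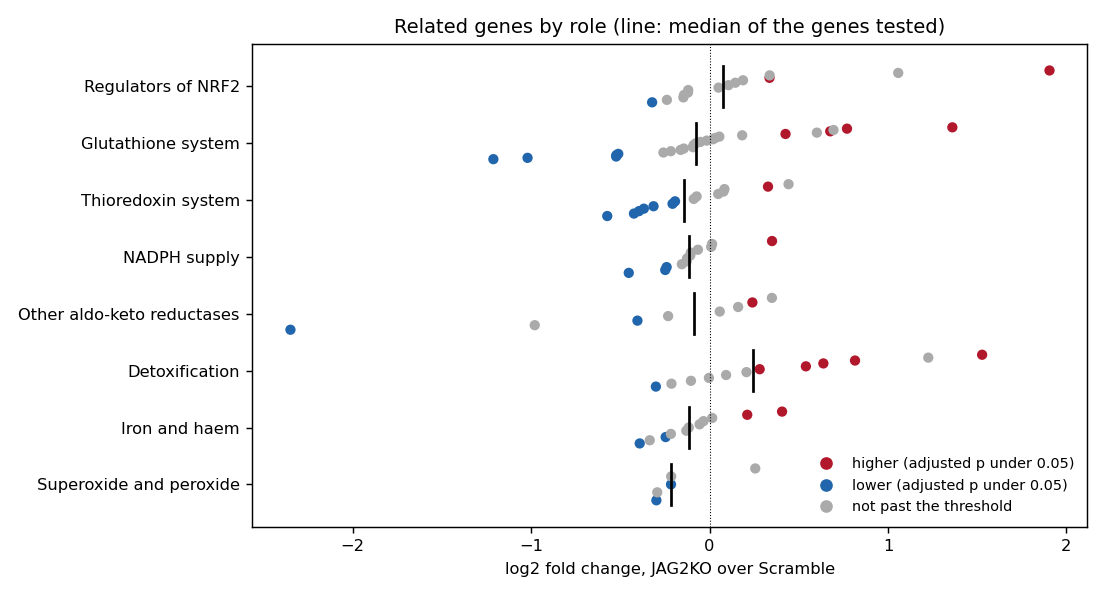
Log2 fold change, JAG2KO over Scramble, of the 101 tested related genes by role. Each point is a gene, coloured by its edgeR call, and the black line is the median of the genes tested in that role. The thioredoxin system has 7 lower genes and 1 higher, and detoxification 5 higher and 1 lower.

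Among regulators of NRF2, 2 of 14 tested genes were higher and 1 was lower. Keap1, the sensor that restrains NRF2, averaged 57.1 ± 7.50 CPM in JAG2KO and 71.4 ± 4.09 CPM in Scramble (SD, n = 3 each), with a log2 fold change of -0.32 (edgeR adjusted p = 0.0247). Bach1, which competes with NRF2 for its elements and represses Hmox1, averaged 62.5 ± 9.93 CPM in JAG2KO and 49.5 ± 4.62 CPM in Scramble (log2 fold change 0.34, edgeR adjusted p = 0.0455). The NRF2 relative Nfe2l3 rose with a log2 fold change of 1.91 from few counts, at 1.25 ± 0.119 CPM in JAG2KO and 0.331 ± 0.150 CPM in Scramble. Keap1 lost its call without JagKO3, JagKO4, Scramble1 or Scramble3 (adjusted p = 0.0798 to 0.102). Bach1 lost it without any library but JagKO2 (adjusted p = 0.0535 to 0.162). Exons of an antisense gene cover 10.9% of the exon bases of Keap1.

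In the thioredoxin system 7 of 14 tested genes were lower and 1 was higher. Txn1, the cytosolic thioredoxin that Txnrd1 recycles, measured 412, 445 and 464 CPM in JagKO2, JagKO3 and JagKO4, against 655, 655 and 654 CPM in the Scramble libraries. Its log2 fold change was -0.57 (SE 0.06, adjusted p = 4.6e-05 from edgeR), so Txn1 was lower while Txnrd1 did not pass; the difference between these genes was not tested. The peroxiredoxins Prdx4 and Prdx6, which reduce peroxides, fell by 0.40 and 0.31 (edgeR adjusted p = 0.00152 and 0.00179). Nxn, nucleoredoxin, rose by 0.33 (edgeR adjusted p = 0.00312). Without JagKO3 or Scramble1 the number of these 7 that stayed called was 3, and without JagKO4 or Scramble2 it was 4.

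Glutathione genes went both ways, with 4 of 25 tested genes higher and 5 lower. Gsr, glutathione reductase, averaged 138 ± 19.2 CPM in JAG2KO and 199 ± 5.01 CPM in Scramble (log2 fold change -0.52, edgeR adjusted p = 0.00108). Gsto1, an omega-class glutathione transferase, fell by 0.52 (edgeR adjusted p = 8.91e-05), and Chac1, which breaks glutathione down, by 1.21 (edgeR adjusted p = 0.00351). The glutathione transferase genes Mgst2, Gstm2 and Gstt2 rose by 0.68, 0.43 and 1.36 (edgeR adjusted p = 0.00452, 0.01 and 0.019), and Gstt2 lost its call without JagKO3 or Scramble1 (adjusted p = 0.0594 and 0.0617). The number of the 4 higher genes that stayed called was 2 without Scramble1.

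Among NADPH genes, 1 of 12 tested genes was higher and 3 were lower. G6pdx, which commits glucose to the pentose phosphate pathway, averaged 63.8 ± 1.67 CPM in JAG2KO and 75.3 ± 2.71 CPM in Scramble (log2 fold change -0.24, edgeR adjusted p = 0.0184). Rpia and Rpe of the same pathway fell by 0.45 and 0.25 (edgeR adjusted p = 0.00148 and 0.0419), and Idh2, a mitochondrial source of NADPH, rose by 0.35 (edgeR adjusted p = 0.000931). G6pdx lost its call without JagKO4, Scramble1 or Scramble2, and Rpe without these or JagKO3 (adjusted p = 0.0513 to 0.171). Exons of opposite-strand genes cover 13.6% of the exon bases of G6pdx and 17.9% of those of Rpe.

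Other aldo-keto reductases did not all follow Akr1b3 and Akr1b8, with 1 of 8 tested genes higher and 2 lower, Akr1b10 among the lower. Akr1a1, aldehyde reductase on chromosome 4, averaged 388 ± 28.6 CPM in JAG2KO and 328 ± 13.4 CPM in Scramble (log2 fold change 0.24, edgeR adjusted p = 0.0242), a call lost without Scramble1 or Scramble2 (adjusted p = 0.0837 and 0.0558). Akr1c13 on chromosome 13 measured 0.243, 0.559 and 0.323 CPM in the JAG2KO libraries, against 1.75, 1.90 and 2.11 CPM in the Scramble libraries (log2 fold change -2.35, edgeR adjusted p = 0.00106). It shares 24.2% of its 50-base words with other genes. In detoxification 5 of 12 tested genes were higher and 1 was lower. Ephx1, microsomal epoxide hydrolase, averaged 28.2 ± 1.52 CPM in JAG2KO and 16.0 ± 1.5 CPM in Scramble (log2 fold change 0.82, edgeR adjusted p = 0.000123). Htatip2 and the carbonyl reductase gene Cbr2 rose by 0.54 and 1.53 (edgeR adjusted p = 0.00206 and 0.0136), and Esd fell by 0.30 (edgeR adjusted p = 0.0217). Cbr2 and Esd lost their calls without Scramble1 or Scramble2 (adjusted p = 0.0527 to 0.0958), and the number of the 5 higher genes that stayed called was 2 without either of those and 3 without JagKO3 or JagKO4.

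Iron and haem genes had 2 of 11 tested genes higher and 2 lower. Tfrc, the transferrin receptor, fell by 0.39 (edgeR adjusted p = 0.00725). Hmox2, the constitutive haem oxygenase, averaged 42.3 ± 2.28 CPM in JAG2KO and 50.2 ± 4.04 CPM in Scramble (edgeR adjusted p = 0.0479), a call that 11 of 12 alternatives ended (adjusted p = 0.0501 to 0.235). Exons of Cdip1 on the other strand cover 40.2% of the exon bases of Hmox2. Blvra reduces the biliverdin made by haem oxygenases, and Fech inserts iron to form haem. They rose by 0.41 and 0.21 (edgeR adjusted p = 0.0364 and 0.0493). Both lost their calls without JagKO4 or any Scramble library, Blvra also without JagKO3 and Fech also without JagKO2 (adjusted p = 0.0659 to 0.151). Of 5 superoxide and peroxide genes, Sod2 and Sod1 were lower, by 0.30 and 0.22 (edgeR adjusted p = 0.01 and 0.0265). Sod2 lost its call without Scramble2 (adjusted p = 0.0625) and Sod1 without JagKO4, Scramble2 or Scramble3 (adjusted p = 0.0796 to 0.0989). Of their 50-base words, Sod2 shares 21.0%, Cbr2 12.1% and Esd 7.76% with other genes, so these counts are uncertain.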

How the data were processed

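RNA was measured by sequencing of polyA RNA in 6 libraries. The authors deposited raw counts per gene and library, and the submitters' processing notes name STAR 2.7.7a and HTSeq 0.11.2; their genome build, annotation release, strand setting and multi-mapping rule were not given in the sources used here. Symbols were found for 55154 of 55334 gene IDs through their unversioned form; the remaining 180 took up 0.00193% of the counts. Coordinates and exon lengths come from GENCODE M21 on GRCm38, which may not be the annotation counted on. Scramble columns carry the numbers of the sample titles; the JAG2KO columns are numbered 2 to 4 where the titles run 1 to 3, so they were used as JAG2KO libraries without a replicate number. Chi-square values between libraries of a group were 12.2 to 31.0 for each degree of freedom, above counting noise, so no library was counted as a deposit of another; separate preparations of 1 RNA could also differ this much.

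The test was edgeR 4.0.16 under R 4.3.3: filterByExpr (minimum count 10, minimum total 15), TMM factors, the quasi-likelihood F test over all 16049 genes and Benjamini-Hochberg adjustment, called under 0.05. SEs are the log2 fold change divided by the square root of F, and the 95% interval uses the fit's total degrees of freedom. CPM values use TMM-scaled totals; 3 counts are worth 0.068 to 0.0811 CPM. The members, the related lists and the tests were chosen with earlier results of these data known. All 10 members are named; from each related list, up to 3 called genes with the smallest p in each direction are named. The nearest genes to a member were taken among named genes with a mean of at least 2 CPM. Alternatives were RLE factors, library totals, no filter, at least 1 CPM in 3 libraries as the filter, DESeq2 1.42.0, limma-voom with limma 3.58.1, and each library left out. The scripts were tested on simulated data, with 200 well-counted genes changed in each of 3 draws. There edgeR called 67.2% of the 1.5-fold changes and 89.1% of the 2-fold changes in the right direction. Of its calls, 8.46% were unchanged genes. The values of 1 marker gene are not reported here.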

Additional observations from a re-analysis of the deposited data

How the results depend on the processing

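No paired analysis was possible because the JAG2KO columns carry no number that ties them to the sample titles. The titles number the samples within each group and do not state that equal numbers mark a pair. A paired test would therefore have no stated basis even with matched columns. Over 120 refits of the 10 genes, 111 kept the direction and the side of the threshold, 5 moved a gene past it and 4 turned a direction. The directions that turned were all of genes near 0: Gclc at 0.064 and Txnrd1 at 0.088 without JagKO2, Txnrd1 at 0.0072 without Scramble1 and Gclm at -0.047 without Scramble2. With single libraries left out, Gclc lay between -0.21 and 0.064, Gclm between -0.047 and 0.13 and Txnrd1 between -0.11 and 0.088. Genes of the set called lower numbered 4 with no low-count filter. Hmox1 (edgeR adjusted p = 5.92e-09) and Srxn1 (edgeR adjusted p = 0.00601) were added. Their log2 fold changes stayed near those of the main fit, at -0.46 and -0.26, while the SEs were smaller. The SE of Hmox1 was 0.07 with no filter and 0.23 in the main fit, and that of Srxn1 0.08 and 0.10. With single libraries left out, 7 to 15 related genes were called higher and 12 to 23 lower, against 16 and 23 with all libraries; with fewer libraries a smaller difference can miss the threshold, and of the 39 related genes called, 17 kept their call in every refit. Scaling choices moved the median of all genes by less than 0.1 on the log2 scale. Depth limits Nqo1 most among the 10 genes, and CPM errors cover 3 libraries a group.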
